A study of Mus musculus with 80 samples.

Results

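The mitochondrial fatty acid oxidation and ketogenesis module is a list of 32 mouse genes, chosen by symbol for the steps they carry out. All 32 symbols were found among the 22103 gene rows of the deposited liver count table, and all 32 were among the 15197 rows that held enough counts to be tested. The livers came from female Balb-C mice aged 10–12 weeks that were gavaged once a day for 7 days with PFESA-BP2, a perfluoroalkyl ether sulfonic acid also called Nafion byproduct 2. There were 5 groups of 4 individual mice, namely a control at 0 mg/kg-day, low doses of 0.03 and 0.3 mg/kg-day, and high doses of 3.0 mg/kg-day and 6.0 mg/kg-day. The treatment description gives deionized water as the control dose, whereas the titles of the control samples name DMSO, so the vehicle is not settled by the labels. The 80 deposited samples are 20 libraries, 1 per mouse, sequenced on 4 lanes each. Each library was made from a piece of whole liver, so a change in the share of a cell type and a change in RNA per cell cannot be told apart.

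Fatty acids are activated to acyl-CoA, carried into the mitochondrion as acylcarnitines, and shortened there by repeated rounds of dehydrogenation, hydration, a second dehydrogenation and thiolysis. Double bonds already present in the chain need isomerases and a reductase, and the electrons taken off reach the respiratory chain through the electron transfer flavoprotein. In liver much of the acetyl-CoA is turned into ketone bodies. The nuclear receptor PPAR-alpha, with the coactivator PGC-1-alpha, is known to drive many of these genes in fasting, and malonyl-CoA holds the pathway back in the fed state by inhibiting carnitine palmitoyltransferase 1.

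At 6.0 mg/kg-day 14 of the 32 members passed an adjusted p of 0.05 against control in edgeR's quasi-likelihood test, 12 higher and 2 lower. Over all tested genes 22.4% passed, 11.2% in each direction. The members' median log2 fold change was 0.283, beside -0.0184 over all genes. The 12 members that rose were Cpt2, Slc25a20, Acsl3, Acsl5, Acadm, Acadvl, Acad11, Hadhb, Eci1, Eci2, Decr1 and Pdk4. The 2 that fell were Cpt1a, the carnitine palmitoyltransferase 1 of liver, and Ppargc1a, which encodes PGC-1-alpha. At 3.0 mg/kg-day Decr1 and Pdk4 rose and Cpt1a fell, 3 members, where 4.61% of all genes passed, 3.18% higher and 1.43% lower, and the members' median was 0.0751 beside -0.0236. Without library 20 of the 3.0 mg/kg-day group the count there was 1, Pdk4, where 2.92% of all genes passed.

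No member passed at 0.03 mg/kg-day, where no gene passed at all (0%), or at 0.3 mg/kg-day, where 0.29% of genes passed. At an unadjusted p under 0.05, edgeR gave 4 members at 0.03 mg/kg-day, where the share over all genes was 3.72%, and 6 members at 0.3 mg/kg-day, where it was 8.56%. DESeq2 called 1 member at 0.03 mg/kg-day, where it called 0.0658% of all genes, and 3 at 0.3 mg/kg-day, where it called 1.22%. Acat1 was the one at 0.03, and Acat1, Eci2 and Fgf21 were those at 0.3. A joint test of the 4 doses passed 15 members: 12 of those named above (all but Acsl5 and Acadvl), and also Acat1, Pdk2 and Fgf21. The share over all genes in the joint test was 21.4%.

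**Figure D1:**
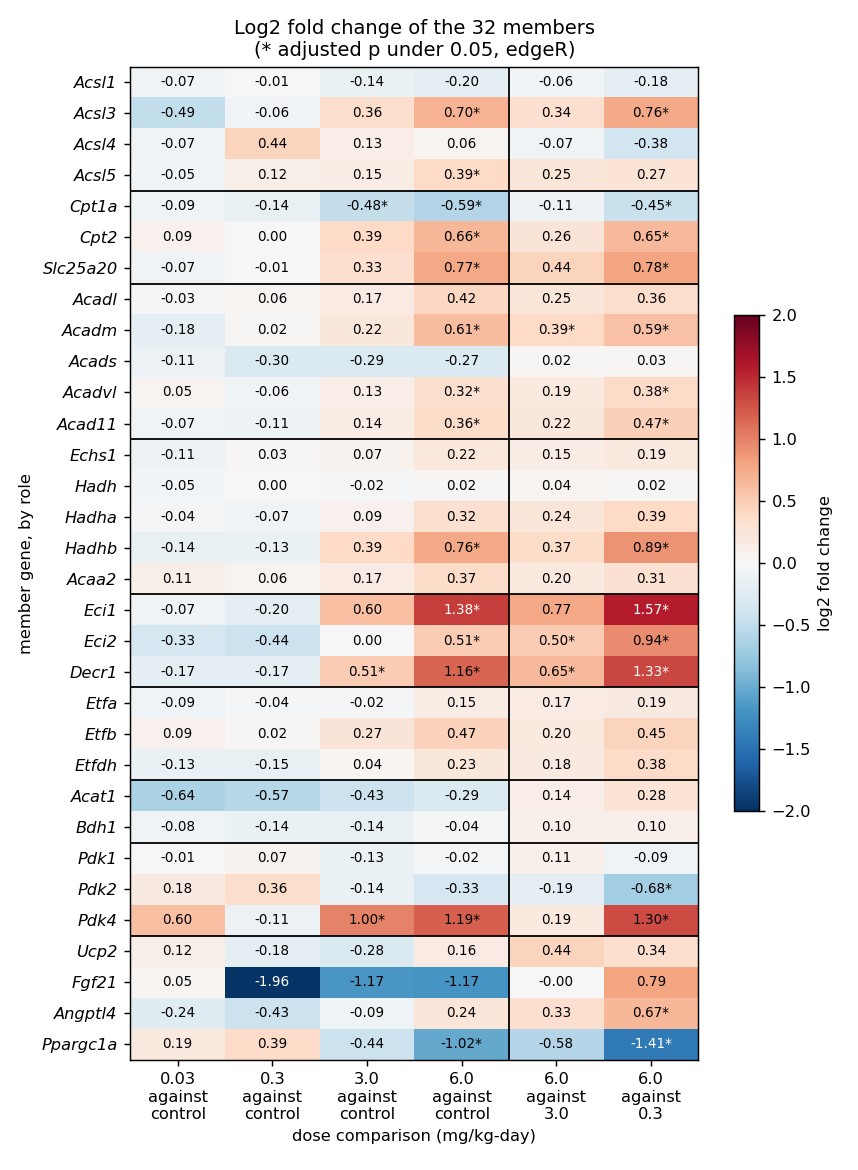
Log2 fold changes of the 32 members (rows, in order of their role) in 6 dose comparisons (columns, mg/kg-day). Colour and number give the log2 fold change, and an asterisk marks an edgeR adjusted p under 0.05. Apart from Fgf21, Acat1 and Pdk4, most rows are pale at the 2 low doses, and many are red at 6.0 mg/kg-day, with Cpt1a and Ppargc1a blue there.

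Total counts ran between 13086755 and 21466978 per library. In each group 1 library stood apart from the other 3 on the first component of the residuals about the group means, which held 42.7% of their variance: library 3 in control, 11 at 0.03, 15 at 0.3, 19 at 3.0 and 23 at 6.0 mg/kg-day. Where 4 values are listed below they are in library order, so that the third of each group is the library apart. It was the lowest of its group in all 5 groups for Cpt2, Slc25a20, Acadl, Hadh, Eci1, Etfdh and Bdh1, 7 members in all, and the highest in all 5 for Acsl1, Acsl3 and Hadha. Over all genes the shares were 13.6% and 12%. With these 5 libraries left out, 19 members passed at 6.0 mg/kg-day, 15 higher and 4 lower, and 13 of the 14 were among them, and the share over all genes was then 34.5%. Acad11 was the member lost, at an edgeR adjusted p of 0.0525. These libraries were picked from the residuals of the same data. Leaving them out, or giving them a term in the model, can lower the residual spread of all genes. Calls gained in those fits, here and below, are therefore not separate support for a change.

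**Figure D2:**
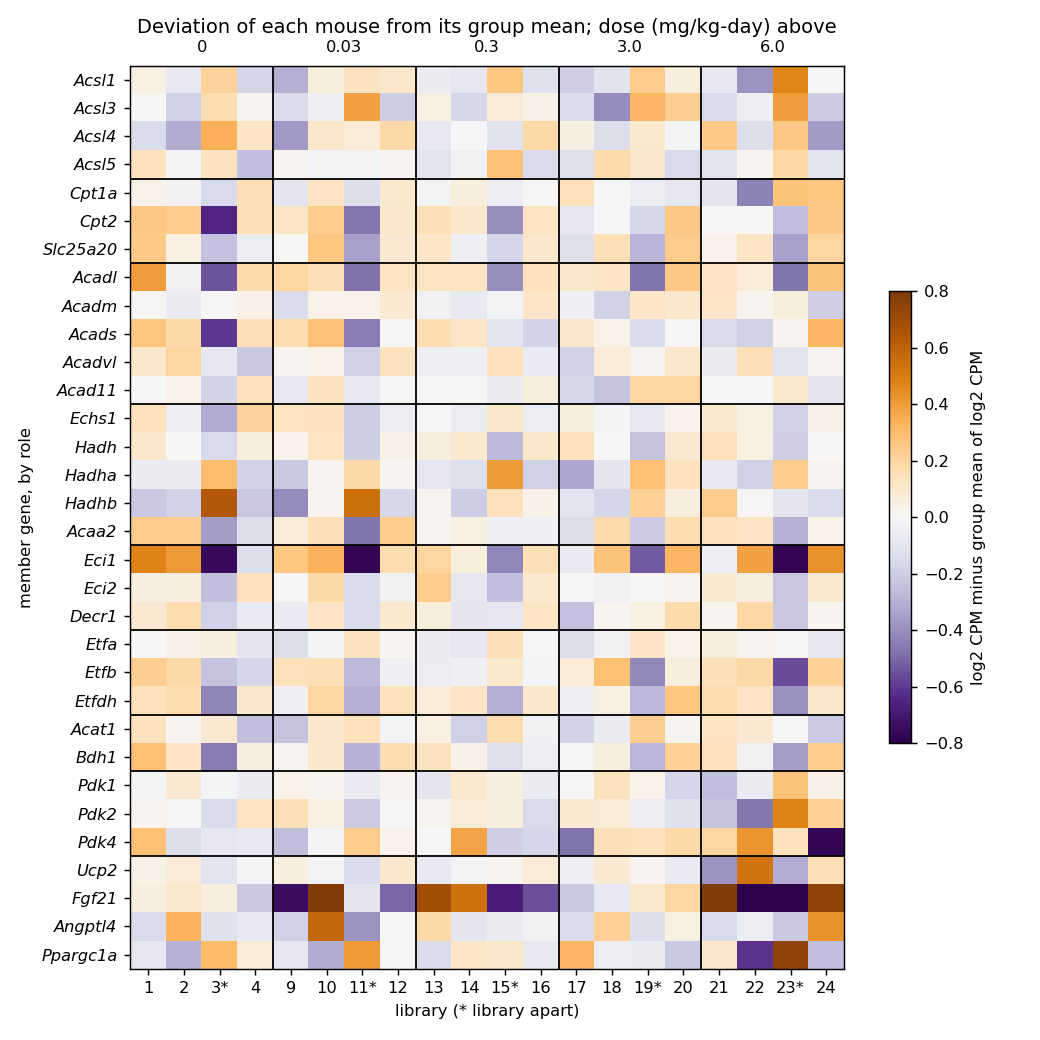
Deviation of each library (columns, grouped by dose) from its group mean, in log2 CPM (counts per 1000000), for the 32 members (rows). The columns with an asterisk are the libraries apart, where Eci1, Cpt2 and Acadl are purple (low) and Acsl1, Acsl3 and Hadha are orange (high).

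Summed levels of cell markers also differed at 6.0 mg/kg-day. Over all tested genes 11.2% rose and 11.2% fell at that dose. The 11 hepatocyte markers in the table, of 12 listed, summed to 89600–121000 CPM at 6.0 mg/kg-day, against 140000–186000 CPM in control, and 4 of them fell. The 10 markers of dividing cells summed to 120–287 CPM at 6.0 mg/kg-day, against 11–13.7 CPM in control, and all 10 rose. The 3 adipocyte markers in the table, of 7 listed, summed to 7.6–14.8 CPM at 6.0 mg/kg-day and 3.28–5.48 CPM in control. In library 22 of the 6.0 mg/kg-day group the 10 T and NK cell markers summed to 131 CPM, against 5.59–8.32 CPM in control. Libraries 21, 23 and 24 had 6.15, 10.8 and 4.13 CPM, and 2 of the 6 tested markers rose. The 12 Kupffer cell markers summed to 571 CPM in library 22 and to 414, 256 and 291 CPM in libraries 21, 23 and 24. In control they summed to 332–407 CPM, and 1 of the 12 fell and none rose at 6.0 mg/kg-day. The 12 stellate cell markers summed to 257–452 CPM at 6.0 mg/kg-day, against 416–473 CPM in control, and 5 fell. Of the 10 markers of sinusoidal endothelium, at 230–299 CPM and 283–314 CPM in those groups, 2 rose and 3 fell. The 8 neutrophil and monocyte markers summed to 9.53–30.9 CPM at 6.0 mg/kg-day, against 6.13–7.82 CPM in control, and 1 of the 6 tested rose. No marker present in the table was at 0 in every library of a group. The part of these differences in the members' changes was not tested.

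In what follows, log2 fold changes are given ± SE and group means ± SD of 4 mice. Among the acyl-CoA synthetases, which activate fatty acids, 2 of 4 rose at 6.0 mg/kg-day. Acsl3, a synthetase of the endoplasmic reticulum and lipid droplets, had 27.4, 29.6, 40.2 and 26.4 CPM at 6.0 mg/kg-day, against 19.0, 16.6, 21.3 and 19.2 CPM in control. The values were 12.1, 13.0, 17.4 and 11.6 CPM at 0.03, 18.8, 16.3, 19.3 and 18.7 CPM at 0.3 and 21.6, 17.9, 29.8 and 27.987 CPM at 3.0 mg/kg-day. All 4 mice at 6.0 mg/kg-day lay above all controls, and at 0.03 mg/kg-day 3 of 4 mice lay at or below 13.0 CPM, under the lowest control. The log2 fold change was 0.70 ± 0.17 at 6.0 mg/kg-day (edgeR adjusted p = 0.00502) and -0.49 ± 0.17 at 0.03 mg/kg-day (edgeR adjusted p = 1). Its exons overlap those of Utp14b on the same strand, so its reads could be shared between both genes.

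Acsl5, a synthetase of the outer mitochondrial membrane and endoplasmic reticulum, had 580.1, 629, 711 and 578 CPM at 6.0 mg/kg-day, against 521, 465, 519 and 399 CPM in control. At the doses between, it had 468, 453, 454 and 468 CPM at 0.03, 478, 504, 622 and 462 CPM at 0.3 and 482, 592, 565 and 469 CPM at 3.0 mg/kg-day. The 6.0 and control mice did not overlap, but library 15 at 0.3 mg/kg-day and library 18 at 3.0 mg/kg-day reached the same range as the 6.0 mice. Acsl5 had a log2 fold change at 6.0 mg/kg-day of 0.39 ± 0.12 (edgeR adjusted p = 0.0258). Leaving out library 2, 4, 22 or 23 lost the call, with adjusted p of 0.0565, 0.0983, 0.055 and 0.0597 in edgeR. Exons of Acsl5 overlap those of Zdhhc6 on the other strand, and the sources used here do not give the use of strand in counting. Acsl1, a main acyl-CoA synthetase of liver, averaged 725 ± 184 CPM at 6.0 mg/kg-day and 831 ± 96.6 CPM in control (edgeR adjusted p = 0.418). Acsl4, known for its preference for arachidonic acid, averaged 71.0 ± 14.4 and 68.1 ± 13.7 CPM in the same groups (edgeR adjusted p = 0.818). At 0.3 mg/kg-day all 4 Acsl4 values, 85.4–105 CPM, were above the 53.9–84.9 CPM of control (edgeR adjusted p = 0.365).

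The carnitine shuttle split. Cpt1a, which makes acylcarnitine at the outer membrane and is the step that malonyl-CoA inhibits, fell, whereas the translocase Slc25a20 and the inner-membrane Cpt2 rose. Cpt1a (chr19:3322334-3385733, plus strand, GRCm38) had 232, 184, 299 and 298 CPM at 6.0 mg/kg-day, against 388, 371, 339 and 422 CPM in control. It had 333, 387, 325 and 381 CPM at 0.03, 339.8, 360.3, 331 and 347 CPM at 0.3 and 301, 272, 262 and 255 CPM at 3.0 mg/kg-day. Every mouse of the 3.0 and 6.0 groups was below every control, and library 22 was the lowest of all 20. The fit for Cpt1a gave a log2 fold change of -0.48 ± 0.13 at 3.0 mg/kg-day (edgeR adjusted p = 0.0393) and -0.59 ± 0.13 at 6.0 mg/kg-day (edgeR adjusted p = 0.00296). The call at 3.0 mg/kg-day was lost without library 1, 2, 4, 18, 19 or 20, with edgeR adjusted p of 0.0935, 0.0723, 0.131, 0.0898, 0.0991 and 0.141. It was also lost in edgeR with library totals alone (adjusted p = 0.0719), with no filter on low counts (0.0771) and with the 2 groups fitted alone (0.0591). The call at 6.0 mg/kg-day held without any 1 library and was lost when the 2 groups were fitted alone (adjusted p = 0.0555, edgeR).

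Slc25a20, the carnitine-acylcarnitine translocase (chr9:108662088-108684641, plus strand), had 138, 147, 106 and 155 CPM at 6.0 mg/kg-day, against 93.9, 81.8, 67.0 and 76.2 CPM in control. At 0.03, 0.3 and 3.0 mg/kg-day it had 75.2, 90.0, 59.0 and 79.9 CPM, then 85.5, 76.8, 69.9 and 84.6 CPM, then 91.5, 111, 81.6 and 118 CPM. The lowest mouse at 6.0 mg/kg-day, library 23, was above the highest control. For Slc25a20 the log2 fold change was 0.77 ± 0.15 (edgeR adjusted p = 0.000966). Cpt2, which turns acylcarnitine back into acyl-CoA inside the mitochondrion, had 129, 129, 108 and 153 CPM at 6.0 mg/kg-day, against 95.2, 94.0, 50.8 and 88.7 CPM in control. Library 3 lay far under the other 3 controls, and without it the log2 fold change was 0.486 (adjusted p = 0.0503, edgeR), against 0.66 ± 0.19 with it (edgeR adjusted p = 0.0163). Without library 24 the adjusted p was 0.0537 in edgeR. The groups did not overlap at 6.0 mg/kg-day. At the other doses Cpt2 had 93.1, 102, 62.4 and 93.0 CPM at 0.03, 90.9, 87.9, 61.8 and 89.2 CPM at 0.3 and 102, 107, 95.9 and 128 CPM at 3.0 mg/kg-day, and all 4 mice at 3.0 mg/kg-day were above all controls without passing the test (edgeR adjusted p = 0.35).

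Of the 5 acyl-CoA dehydrogenases, which catalyse the first step of each round for different chain lengths, 3 rose. Acadm, the medium-chain enzyme (chr3:153922357-153944632, minus strand), had 583, 544, 564 and 469.7 CPM at 6.0 mg/kg-day, against 355, 338, 355 and 363 CPM in control. It had 281, 319, 319 and 330.0 CPM at 0.03, 352, 341, 353 and 388 CPM at 0.3 and 401, 361, 445 and 440.0 CPM at 3.0 mg/kg-day. The control mice lay close together, the 6.0 mice lay above every mouse of every other group, and the 0.03 mice all lay below the controls. The log2 fold change was 0.61 ± 0.1 at 6.0 mg/kg-day (edgeR adjusted p = 0.000141) and 0.39 ± 0.1 at 6.0 against 3.0 mg/kg-day (edgeR adjusted p = 0.0456). The call against 3.0 mg/kg-day was lost without library 17, 18, 20, 21 or 22, with edgeR adjusted p of 0.136, 0.163, 0.0534, 0.0888 and 0.117, with library totals alone (0.112) and with no filter on low counts (0.0883).

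Acadvl, the very-long-chain enzyme of the inner membrane (chr11:70010183-70015411, minus strand), had 373, 430.3, 361 and 391 CPM at 6.0 mg/kg-day, against 332, 356, 291 and 265 CPM in control. The other doses gave 327, 330.5, 282 and 353 CPM at 0.03, 291, 292, 329.5 and 285 CPM at 0.3 and 297, 358, 342 and 365 CPM at 3.0 mg/kg-day. The lowest 6.0 mouse and the highest control mouse were only a few CPM apart. The log2 fold change of 0.32 ± 0.11 was near the threshold (edgeR adjusted p = 0.0453), and without library 1, 3, 4, 21, 22 or 24 the edgeR adjusted p was 0.0524, 0.111, 0.155, 0.0561, 0.141 or 0.0755. Acad11, an acyl-CoA dehydrogenase active on long chains, had 490.4, 486, 523 and 458 CPM at 6.0 mg/kg-day, against 378, 388, 335 and 419 CPM in control. It had 342, 397, 344 and 364 CPM at 0.03, 350.0, 352, 338 and 369 CPM at 0.3 and 370.2, 353, 475 and 479 CPM at 3.0 mg/kg-day, where 2 mice were in the 6.0 range and 2 in the control range. The fit for Acad11 gave a log2 fold change of 0.36 ± 0.11 at 6.0 mg/kg-day (edgeR adjusted p = 0.0238), and without library 3 the edgeR adjusted p was 0.078. Exons of Acadvl and Acad11 overlap exons of neighbours (Dvl2 for Acadvl, Ackr4 and Gm28305 for Acad11), and the sources used here do not give the rule that assigned reads there.

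The long-chain enzyme Acadl averaged 195 ± 39.8 CPM at 6.0 mg/kg-day and 146 ± 37.9 CPM in control (edgeR adjusted p = 0.165). The library apart had the lowest Acadl value in all 5 groups. The log2 fold change was 0.417 with all libraries and 0.419 without those libraries, where the edgeR adjusted p was 0.00533. That p-value is not separate support, because these libraries were picked from the residuals. Acads, the short-chain enzyme, averaged 100.4 ± 17.0 CPM at 6.0 mg/kg-day and 121 ± 29.3 CPM in control, a log2 fold change of -0.27 ± 0.18 (edgeR adjusted p = 0.294). It was the only dehydrogenase with a negative estimate at 6.0 mg/kg-day, which was -0.415 with an edgeR adjusted p of 0.0201 without the libraries apart.

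Stretches of 3 promoters are shown because they hold the 6-letter half-site AGGTCA, the repeat unit of elements that bind nuclear receptors such as PPAR-alpha, and because Acadm and Acadvl rose while Cpt1a fell. Each covers the 250 bases before the gene's RefSeq start (GRCm38.p6), read on the gene's own strand, with the match on either strand in capitals. For Cpt1a that start lies inside the longer GENCODE M21 model.
Acadm, chr3:153944644-153944893: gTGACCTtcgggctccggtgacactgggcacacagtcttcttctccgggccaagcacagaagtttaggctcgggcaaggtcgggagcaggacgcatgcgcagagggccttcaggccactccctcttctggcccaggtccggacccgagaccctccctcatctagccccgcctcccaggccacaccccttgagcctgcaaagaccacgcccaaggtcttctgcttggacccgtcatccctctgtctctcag
Acadvl, chr11:70015429-70015678: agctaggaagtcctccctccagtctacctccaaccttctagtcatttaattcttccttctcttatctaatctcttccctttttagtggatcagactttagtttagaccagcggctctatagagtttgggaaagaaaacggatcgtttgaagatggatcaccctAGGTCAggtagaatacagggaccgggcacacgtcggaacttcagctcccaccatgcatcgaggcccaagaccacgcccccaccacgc
Cpt1a, chr19:3323051-3323300: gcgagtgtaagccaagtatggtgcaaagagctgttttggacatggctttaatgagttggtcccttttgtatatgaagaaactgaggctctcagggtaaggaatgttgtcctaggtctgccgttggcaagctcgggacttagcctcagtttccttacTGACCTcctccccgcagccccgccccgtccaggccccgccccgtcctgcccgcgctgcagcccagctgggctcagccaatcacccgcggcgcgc
Of the 32 members 28 had an entry in the RefSeq table, with 32 entries in all, and the half-site was in 4 of the 32, those 3 and Echs1. It was in 14% of all 32851 promoters searched. A direct repeat of 2 half-sites with 1 free base between them was in 0.0335% of all promoters, the extended site TNAAGGTCA in 1.14% and the cyclic AMP response element TGACGTCA in 1.55%, and none of the 3 was in a member's entry. Only exact letters within these 250 bases were searched, and motifs this rare would seldom occur in 32 entries. Their absence therefore does not decide whether the members have such elements. The half-site is also a part of both longer AGGTCA motifs.

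In the later steps of the spiral 1 of 5 members rose, Hadhb, the thiolase subunit of the mitochondrial trifunctional protein. It had 349, 297, 277 and 267 CPM at 6.0 mg/kg-day, against 145, 149, 263 and 145 CPM in control. At 0.03 mg/kg-day it had 116, 157, 225 and 137 CPM, at 0.3 mg/kg-day 162, 138, 176 and 164 CPM and at 3.0 mg/kg-day 214, 203, 266 and 239 CPM. Library 3 was far above the other controls and close to the lowest 6.0 mouse, yet the groups did not overlap. For Hadhb the log2 fold change at 6.0 mg/kg-day was 0.76 ± 0.2 (edgeR adjusted p = 0.00873). At 3.0 mg/kg-day it was 0.39 ± 0.2 (edgeR adjusted p = 0.388), and without library 3 it was 0.653 and passed the test, with an edgeR adjusted p of 0.0394.

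Hadha, the other subunit of the trifunctional protein, which holds the hydratase and hydroxyacyl-CoA dehydrogenase activities, had 462, 428, 575 and 492 CPM at 6.0 mg/kg-day, against 372, 372, 477 and 343 CPM in control. Library 3 was above the 2 lowest 6.0 mice, so the groups overlapped. The log2 fold change of Hadha was 0.32 ± 0.16 (edgeR adjusted p = 0.152), and 0.367 with an edgeR adjusted p of 0.0213 without the libraries apart. The difference between the changes of Hadha and Hadhb was not tested. The 2 genes are neighbours on chromosome 5 and read away from each other, Hadha on the minus strand (chr5:30118304-30155162) and Hadhb on the plus strand (chr5:30155248-30184593). The 85 bases that lie between their GENCODE M21 models are shown, plus strand, because they lie upstream of both genes, with GGGCGG (the GC box, searched on both strands) in capitals.
Hadha and Hadhb, chr5:30155163-30155247: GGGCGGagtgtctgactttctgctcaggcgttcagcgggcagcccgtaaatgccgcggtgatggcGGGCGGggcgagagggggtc
The GC box occurred 2 times. The last 85 bases before the start held it in 22.8% of all 32851 promoters, and AGGTCA was not among these letters.

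The short-chain hydratase Echs1 averaged 429 ± 35.7 CPM at 6.0 mg/kg-day and 369 ± 57.0 CPM in control (edgeR adjusted p = 0.193). Acaa2, the medium-chain 3-ketoacyl-CoA thiolase, averaged 1211 ± 162 and 939 ± 186 CPM (edgeR adjusted p = 0.115), and without library 23 its log2 fold change was 0.458 with an edgeR adjusted p of 0.0459. Hadh, the short-chain hydroxyacyl-CoA dehydrogenase, averaged 542 ± 53.0 and 534 ± 41.9 CPM, with a log2 fold change of 0.022 ± 0.12. The spread of Hadh over the mice of each group was larger than any difference between its group means.

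**Figure D3:**
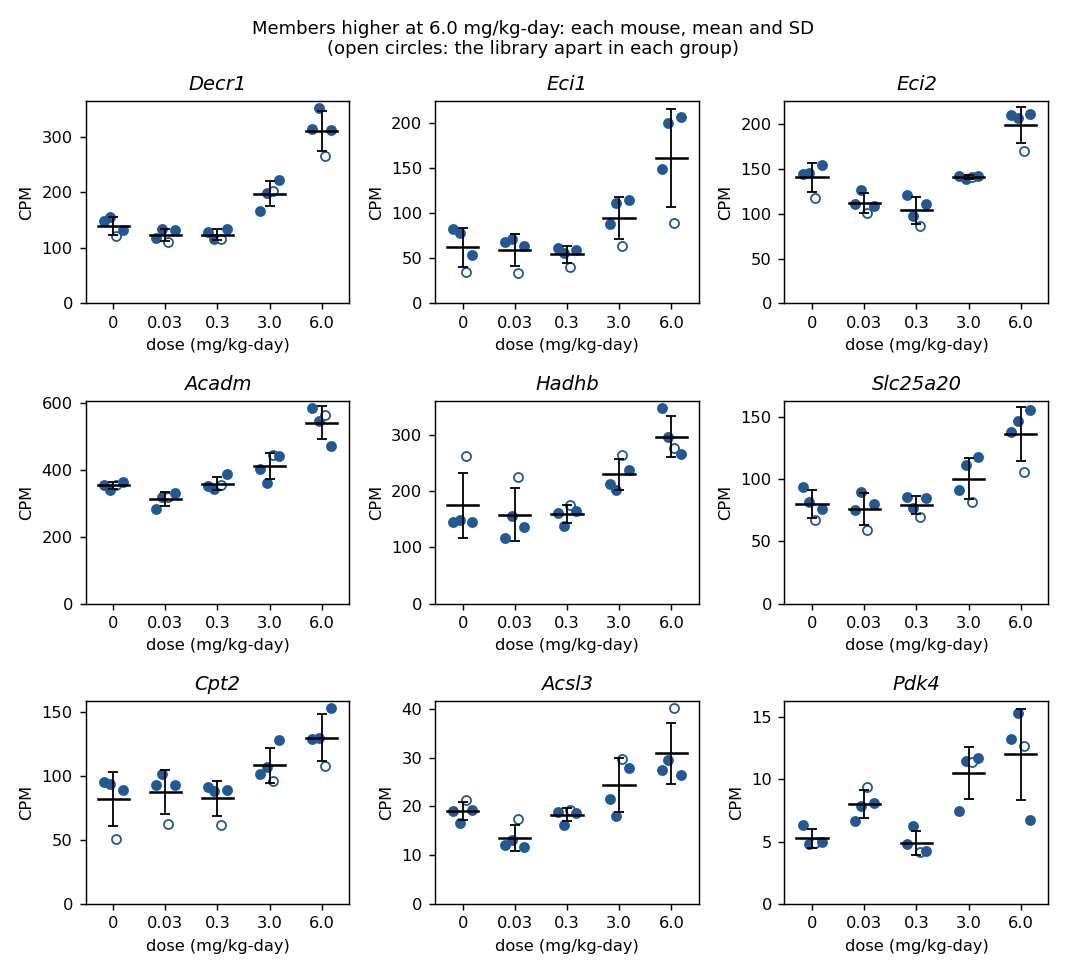
CPM (vertical axes, starting at 0) of 9 members in each of the 20 mice by dose (mg/kg-day, with 0 as control). Filled circles are mice, open circles the library apart of each group, and lines with bars the mean and SD of 4 mice. Decr1 and Acadm at 6.0 mg/kg-day lie above every mouse of the other groups, and for Pdk4 1 mouse at 6.0 lies among the 0.03 mice.

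All 3 members that deal with unsaturated chains rose at 6.0 mg/kg-day, and the median of their log2 fold changes was 1.16. Decr1, the mitochondrial 2,4-dienoyl-CoA reductase (chr4:15917240-15945507, minus strand), had the smallest adjusted p of the 32 members at 6.0 mg/kg-day. It had 314, 352, 264 and 312 CPM at 6.0 mg/kg-day, against 147, 156, 121 and 132 CPM in control. Between those doses it had 117, 133, 111 and 131 CPM at 0.03, 129, 115, 116 and 134 CPM at 0.3 and 166, 199, 203 and 222 CPM at 3.0 mg/kg-day. The 3.0 mice lay above all controls and the 6.0 mice above all 3.0 mice. Decr1 had a log2 fold change of 0.51 ± 0.12 at 3.0 mg/kg-day (edgeR adjusted p = 0.0123), 1.16 ± 0.12 at 6.0 mg/kg-day (edgeR adjusted p = 6.02e-07) and 0.65 ± 0.12 at 6.0 against 3.0 mg/kg-day (edgeR adjusted p = 0.00562). The call at 3.0 mg/kg-day was lost without library 3 or library 20, with edgeR adjusted p of 0.0518 and 0.0677. Fitting only the control and 3.0 mg/kg-day groups lost it as well (edgeR adjusted p = 0.0587).

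Eci1, the mitochondrial enoyl-CoA delta isomerase (chr17:24426641-24439348, plus strand), had the largest log2 fold change of the 32 members at 6.0 mg/kg-day, 1.38 ± 0.29 (edgeR adjusted p = 0.00194). It had 149, 201, 89.8 and 207 CPM at 6.0 mg/kg-day, against 82.2, 77.8, 34.9 and 53.8 CPM in control. The mice had 68.0, 71.6, 33.3 and 63.8 CPM at 0.03, 61.5, 56.1, 39.9 and 59.8 CPM at 0.3 and 88.2, 111, 63.9 and 115 CPM at 3.0 mg/kg-day. The library apart was the lowest in all 5 groups, and library 23 was nearer to the highest control than to the other 6.0 mice. Without library 23 the edgeR call at 6.0 mg/kg-day was kept, as it was in all 17 alternatives tried.

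Eci2, an isomerase found in both mitochondria and peroxisomes, had a different course. It had 210.2, 206, 169 and 211 CPM at 6.0 mg/kg-day, against 145, 145, 118 and 154 CPM in control. At lower doses it had 111, 127, 101 and 109 CPM at 0.03, 121, 97.3, 86.7 and 110.3 CPM at 0.3 and 142, 138, 141 and 142 CPM at 3.0 mg/kg-day. The 2 low-dose groups had lower means than control, the mean at 3.0 was close to that of control, and the 6.0 mice lay above all others. The fit for Eci2 gave a log2 fold change of -0.33 at 0.03 mg/kg-day (edgeR adjusted p = 1), -0.44 at 0.3 mg/kg-day (edgeR adjusted p = 0.148), 0.0045 at 3.0 mg/kg-day and 0.505 ± 0.12 at 6.0 mg/kg-day (edgeR adjusted p = 0.00372). Against 0.3 mg/kg-day, the 6.0 mg/kg-day group differed by 0.94 ± 0.12 (edgeR adjusted p = 9.3e-06).

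None of the 3 genes of electron transfer from the dehydrogenases passed edgeR's test over the 5 groups at 6.0 mg/kg-day, and Etfb passed in other fits. Etfb, the beta subunit of the electron transfer flavoprotein, was nearest. It averaged 198 ± 44.5 CPM at 6.0 mg/kg-day and 144 ± 23.4 CPM in control, with a log2 fold change of 0.47 ± 0.17 (edgeR adjusted p = 0.0535). Library 23 had 132 CPM, and the other 3 mice at 6.0 mg/kg-day had 216–225 CPM. Without library 23 the log2 fold change was 0.619 with an edgeR adjusted p of 0.00428, and without library 1 it was 0.543 with 0.0442. Etfb also passed in DESeq2 (adjusted p = 0.0299) and in edgeR with RLE factors (0.0469), with library totals alone (0.0311), with a filter at a mean of 1 CPM (0.0435), without the libraries apart (0.000847) and with a term for them (0.00688). Etfa, the alpha subunit, averaged 244 ± 10.9 and 220.3 ± 10.5 CPM, and its 6.0 and control mice did not overlap, by a margin of less than 1 CPM (edgeR adjusted p = 0.28). Etfdh, the ubiquinone oxidoreductase that accepts the electrons, averaged 321 ± 53.2 and 274 ± 48.9 CPM (edgeR adjusted p = 0.345), and with a term for the libraries apart its edgeR adjusted p was 0.0329.

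Neither of the 2 ketone body members passed edgeR's test over the 5 groups in any comparison with control, and Acat1 passed in other fits. Acat1, the mitochondrial acetoacetyl-CoA thiolase that joins 2 acetyl-CoA (chr9:53580522-53610382, minus strand), had 499, 459, 482 and 382 CPM in control, 248, 313, 323 and 287 CPM at 0.03, 317, 269, 345 and 301 CPM at 0.3, 297, 324, 394 and 340.0 CPM at 3.0 and 406, 393, 371 and 322 CPM at 6.0 mg/kg-day. All 8 mice of the 2 low doses were below all controls, and in the 3.0 and 6.0 groups the values overlapped the control range through library 4, the lowest control. For Acat1 the log2 fold change was -0.64 ± 0.12 at 0.03 (edgeR adjusted p = 0.254), -0.57 ± 0.12 at 0.3 (edgeR adjusted p = 0.0565), -0.43 ± 0.12 at 3.0 (edgeR adjusted p = 0.057) and -0.29 ± 0.12 at 6.0 mg/kg-day (edgeR adjusted p = 0.105). The joint test passed (adjusted p = 0.00378, edgeR). At 3.0 mg/kg-day the call was made without library 4 or library 19, with edgeR adjusted p of 0.0305 and 0.0323, and without the libraries apart, at 0.0408. DESeq2 called Acat1 at 3.0 mg/kg-day too, with an adjusted p of 0.0185. A model with a term for these libraries gave Acat1 edgeR adjusted p of 0.0102 at 3.0 and 0.0374 at 6.0 mg/kg-day. Bdh1, which interconverts acetoacetate and beta-hydroxybutyrate, averaged 284 ± 48.4 CPM at 6.0 mg/kg-day and 292 ± 59.0 CPM in control (edgeR adjusted p = 0.88).

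Of the pyruvate dehydrogenase kinases, which switch off the entry of pyruvate into acetyl-CoA, 1 of 3 rose at 6.0 mg/kg-day. Pdk4 (chr6:5483351-5496309, minus strand), the kinase known to be induced in fasting, had 13.2, 15.4, 12.7 and 6.78 CPM at 6.0 mg/kg-day, against 6.37, 4.78, 4.92 and 4.97 CPM in control. It had 6.68, 7.86, 9.39 and 8.09 CPM at 0.03, 4.80, 6.25, 4.19 and 4.26 CPM at 0.3 and 7.44, 11.5, 11.4 and 11.8 CPM at 3.0 mg/kg-day. The 0.03, 3.0 and 6.0 mice were all above all controls, while the 0.3 mice lay within or below the control range, so the values did not follow the order of the doses. Library 24 was under all 3 other mice at 6.0 mg/kg-day by more than 5 CPM. The log2 fold change was 0.60 ± 0.22 at 0.03 mg/kg-day (edgeR adjusted p = 1), -0.11 ± 0.22 at 0.3 (edgeR adjusted p = 0.953), 1.00 ± 0.22 at 3.0 (edgeR adjusted p = 0.00726) and 1.19 ± 0.22 at 6.0 mg/kg-day (edgeR adjusted p = 0.00041).

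Pdk2, the kinase most abundant among the pyruvate dehydrogenase kinases per kb of exon in these controls, had 54.4, 53.5, 48.4 and 58.7 CPM in control, 67.8, 62.7, 52.5 and 60.8 CPM at 0.03, 69.5, 72.6, 71.5 and 61.6 CPM at 0.3, 51.9, 51.6, 46.9 and 45.1 CPM at 3.0 and 35.2, 30.0, 57.6 and 48.4 CPM at 6.0 mg/kg-day. The 0.3 mice were all above the controls, and the 6.0 mice spread widely, with library 23 in the control range and libraries 21 and 22 far below it. At 6.0 against 0.3 mg/kg-day the log2 fold change was -0.68 ± 0.15 (edgeR adjusted p = 0.0025), and against control it was -0.33 ± 0.15 (edgeR adjusted p = 0.132). Without library 23 the change against control was -0.506 with an edgeR adjusted p of 0.00995. Pdk1 averaged 75.3 ± 11.4 CPM at 6.0 mg/kg-day and 76.6 ± 3.42 CPM in control (edgeR adjusted p = 0.892).

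Of the regulators and secreted factors in the module, Ppargc1a fell. Ppargc1a (chr5:51454250-51567726, minus strand) had 6.84, 4.13, 10.7 and 5.34 CPM at 6.0 mg/kg-day, against 12.7, 11.1, 16.8 and 14.2 CPM in control. It had 14.4, 12.3, 20.4 and 15.4 CPM at 0.03, 16.1, 19.3, 19.3 and 16.9 CPM at 0.3 and 12.5, 9.66, 9.58 and 8.62 CPM at 3.0 mg/kg-day. The 6.0 mice were all below the controls, narrowly so for library 23. Ppargc1a had a log2 fold change of -1.02 ± 0.23 against control (edgeR adjusted p = 0.00266) and -1.41 ± 0.23 against 0.3 mg/kg-day (edgeR adjusted p = 0.000128).

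Fgf21, a fasting hormone secreted by liver, was the least abundant member per kb of exon, with between 3 and 42 counts per library. It had 1.04, 1.07, 1.04 and 0.856 CPM in control, 0.514, 2.17, 0.803 and 0.605 CPM at 0.03, 0.373, 0.337, 0.144 and 0.158 CPM at 0.3, 0.377, 0.415, 0.468 and 0.504 CPM at 3.0 and 0.808, 0.202, 0.173 and 0.606 CPM at 6.0 mg/kg-day. All 12 mice of the 0.3, 3.0 and 6.0 groups were below all controls, and library 10 at 0.03 mg/kg-day was the highest of the 20. The fit for Fgf21 gave a log2 fold change of -1.96 ± 0.5 at 0.3 (edgeR adjusted p = 0.122), -1.17 ± 0.47 at 3.0 (edgeR adjusted p = 0.225) and -1.17 ± 0.48 at 6.0 mg/kg-day (edgeR adjusted p = 0.0835), and the joint test passed (adjusted p = 0.0144, edgeR). Without library 21 the change at 6.0 mg/kg-day was -1.59, with an edgeR adjusted p of 0.0372.

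Angptl4, a secreted inhibitor of lipoprotein lipase, had 27.4, 38.1, 28.02 and 28.9 CPM in control, 21.9, 37.3, 19.1 and 25.0 CPM at 0.03, 25.8, 21.2, 21.8 and 22.3 CPM at 0.3, 26.0, 33.5, 26.2 and 29.6 CPM at 3.0 and 31.955, 34.4, 30.6 and 48.0 CPM at 6.0 mg/kg-day. The 0.3 mice were all below the controls and the 6.0 mice overlapped them. For Angptl4 the log2 fold change was 0.24 ± 0.18 at 6.0 mg/kg-day against control (edgeR adjusted p = 0.368) and 0.67 ± 0.18 against 0.3 mg/kg-day (edgeR adjusted p = 0.0106). Without library 24, the highest of the 20, the Angptl4 comparison with 0.3 mg/kg-day had an edgeR adjusted p of 0.0504. Ucp2, a mitochondrial carrier of the inner membrane that is known from Kupffer cells and other macrophages in liver, had 24.9, 25.6, 22.6 and 24.0 CPM in control, 27.5, 26.0, 23.9 and 28.3 CPM at 0.03, 20.4, 21.1, 21.6 and 22.6 CPM at 0.3, 19.4, 21.1, 20.2 and 19.0 CPM at 3.0 and 20.1, 37.8, 21.1 and 29.3 CPM at 6.0 mg/kg-day. Its highest value was in library 22, the library with the highest Kupffer cell and T and NK cell sums. Library 24, with the next highest value (29.3 CPM), had sums of 291 and 4.13 CPM for these cells. A link between Ucp2 and these sums was not tested. The log2 fold change of Ucp2 at 6.0 mg/kg-day was 0.16 ± 0.15 (edgeR adjusted p = 0.488), and -0.047 without library 22.

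**Figure D4:**
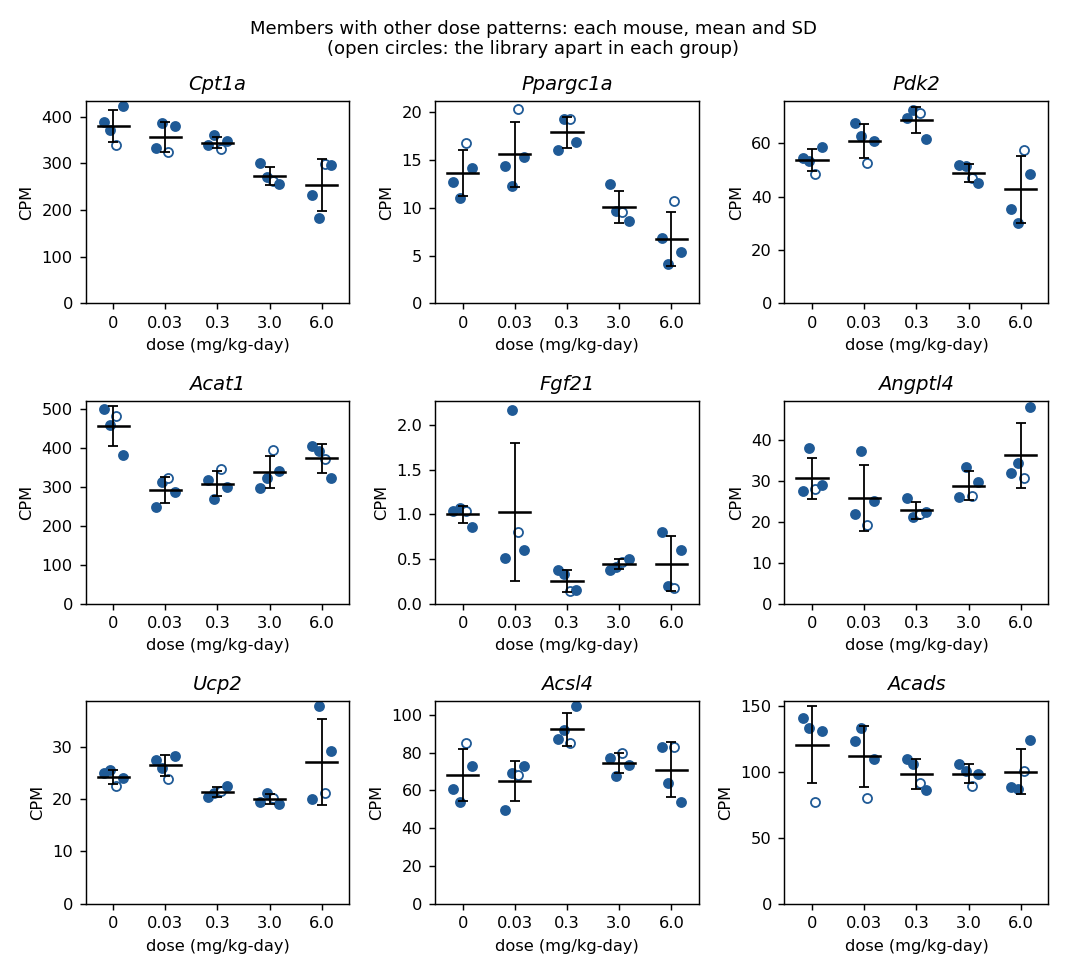
CPM (vertical axes, starting at 0) of 9 members whose values did not simply go up with dose, in each of the 20 mice by dose (mg/kg-day, with 0 as control). Filled circles are mice, open circles the library apart of each group, and lines with bars the mean and SD of 4 mice. Cpt1a is lowest at 3.0 and 6.0, Acat1 is lowest at 0.03, and Pdk2 and Ppargc1a are highest at 0.3 mg/kg-day.

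The 2 highest doses were also compared with each other. Acadm, Eci2 and Decr1 passed at 6.0 against 3.0 mg/kg-day, all 3 higher, where 2.09% of all genes passed, 1.03% higher and 1.06% lower. Those members and Hadhb had groups that did not overlap, 4 members against 6.46% over all genes. Without library 17, 18, 20 or 22 the count was 1, Decr1, and without library 23 it was 7. The shares of all genes in those fits were 0.714%, 0.863%, 1.91%, 0.82% and 6.29%. The call of Eci2 was lost without any 1 of the 8 libraries other than 23 (edgeR adjusted p of 0.0534 to 0.0932) and with no filter on low counts (0.0528). When only these 2 groups were fitted, the edgeR adjusted p was 0.337 for Acadm, 0.179 for Eci2 and 0.126 for Decr1. At 6.0 against 0.3 mg/kg-day 15 members passed, 12 higher and 3 lower, where 27.8% of all genes passed, 14% higher and 13.8% lower. Angptl4 and Pdk2 passed in that comparison and not against control. The controls are on neither side of these comparisons but entered the filter, the scaling and the estimate of spread. Against control, the groups did not overlap for 3 members at 0.03 mg/kg-day (3.32% over all genes), 6 at 0.3 (6.69%), 6 at 3.0 (10.5%) and 16 at 6.0 mg/kg-day (18.5%).

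Transcript levels of the members were compared per kb of merged exon (GENCODE M21), as CPM per kb. Merged exons pool all annotated exons of a gene, such as 8.73 kb for Hadha and 1.516 kb for Acaa2. The order of the genes therefore rests on this length as well. In control Pdk1 was above Pdk2 in CPM (76.6 and 53.8) and below it per kb (9.85 and 17). Acaa2 was the highest, at 799 ± 107 at 6.0 mg/kg-day and 619 ± 122 in control (SD, n = 4 each). In control the next were Etfb at 123 ± 20.1, Acat1 at 121 ± 13.8, Etfa at 120.1 ± 5.73, Acadvl at 116 ± 15.1 and Hadh at 107 ± 8.41, each of which differed from the one next in order by less than the larger SD of the pair. Among the enzymes of the spiral and of unsaturated chains the lowest were Hadhb at 26.6 ± 8.83 and Eci2 at 25.3 ± 2.84, which did not differ beyond their spread. The lowest members in control were Ppargc1a at 2.08 ± 0.367, Pdk4 at 1.5 ± 0.212 and Fgf21 at 1.05 ± 0.103. At 6.0 mg/kg-day Pdk4 was at 3.42 ± 1.05 and Ppargc1a at 1.02 ± 0.434, so the order of these 2 was turned round, and Decr1 was at 80.0 ± 9.29 beside 54.3 ± 7.74 for Cpt2, which in control were at 35.9 ± 4.00 and 34.4 ± 8.82.

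**Figure D5:**
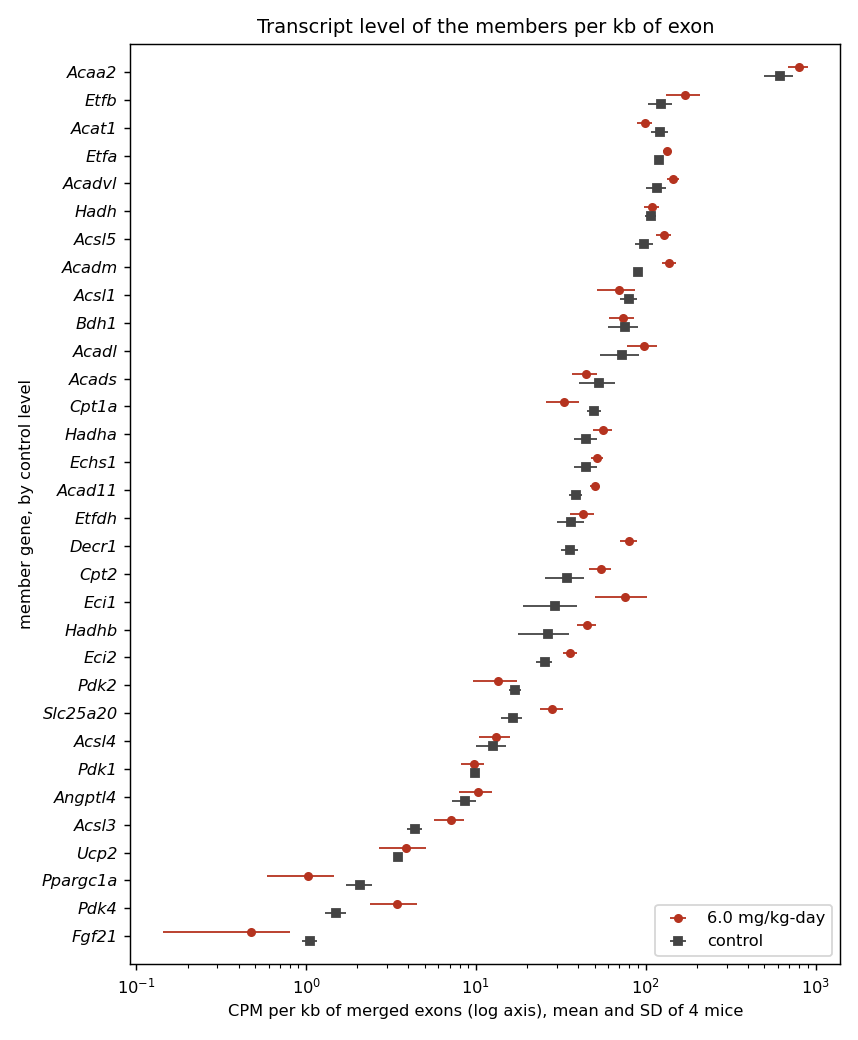
Mean CPM per kb of merged exon with SD of 4 mice (horizontal log axis) of the 32 members (rows, ordered by control level), with circles for 6.0 mg/kg-day and squares for control. Acaa2 is at the top and Fgf21 at the bottom, and the circles of Decr1, Eci1, Slc25a20 and Pdk4 lie to the right of their squares.

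Related genes outside the module were described from lists chosen by pathway, by counts at 6.0 mg/kg-day. For all the lists that follow, the share over all tested genes was 11.2% higher and 11.2% lower. Of 8 other tested genes of the carnitine system 3 rose and none fell. Crat, carnitine acetyltransferase, averaged 44.7 ± 10.8 CPM at 6.0 mg/kg-day and 14.6 ± 2.86 CPM in control (SD, n = 4 each). The muscle-type Cpt1b averaged 6.32 ± 2.57 and 1.29 ± 0.524 CPM, and its exons overlap Gm44502 on the same strand. The third was the carnitine transporter Slc22a5, with a log2 fold change of 0.98. Of 10 other tested acyl-CoA synthetases Acss2 rose and Slc27a1 fell, which is near the share over all genes. Of 21 genes on a wider list around mitochondrial beta oxidation 6 rose and 2 fell. The list also holds genes of other steps, such as thioesterases and propionyl-CoA carboxylase subunits, so the counts do not describe beta oxidation alone. The smallest adjusted p were those of the mitochondrial thioesterase Acot2 (2.07 on the log2 scale), the propionyl-CoA carboxylase subunit Pccb (-0.57) and the dienoyl-CoA isomerase Ech1 (0.89).

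Of 9 other tested genes of ketone body metabolism 4 rose and none fell, among them Acat2 and Oxct1 at log2 fold changes of 0.61 and 0.78. Oxct1 is the enzyme that uses ketone bodies and Acat2 is the cytosolic thiolase. Of 12 other genes of the pyruvate switch 4 rose and 1 fell, led by 3 subunits of pyruvate dehydrogenase itself, Pdha1, Pdhb and Dlat, at 0.99, 0.76 and 0.58. Of 21 other regulators 1 rose and 5 fell. Pparg rose by 1.04, and Klb, the coreceptor for Fgf21, and Ppara, the gene of PPAR-alpha, had log2 fold changes of -1.19 and -1.07. Ppara averaged 44.9 ± 16.8 CPM at 6.0 mg/kg-day and 94.3 ± 7.39 CPM in control.

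The peroxisomal beta oxidation list, the pathway most like the module, had 12 of 31 tested genes higher and 4 lower at 6.0 mg/kg-day. Over all tested genes 11.2% were higher and 11.2% lower. The median log2 fold change of the list was 0.281, beside 0.283 for the 32 members. The genes with the smallest adjusted p there were Acaa1b, Ehhadh and Pex11a, at log2 fold changes of 2.07, 1.62 and 1.14, and the largest change among the members was the 1.38 of Eci1. No test of a difference between the 2 lists was made.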

How the data were processed

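RNA from the 20 livers was sequenced on an Illumina NextSeq 500 per the labels, and reads were processed in Partek on genome build GRCm38.p5 per the submitters' processing notes. For the aligner, the counting method and the use of strand, the sources used here give nothing. The deposited table holds expected counts per gene and library, of which 58% were exactly whole numbers, with the 4 lanes of a library in 1 column. These expected counts were first rounded to integers. Rows were kept by edgeR's filterByExpr, which left 15197 of 22103, scaled by TMM, and fitted over all 5 groups with edgeR's quasi-likelihood model (R 4.3.3, edgeR 4.0.16; 15 residual degrees of freedom, common biological coefficient of variation 0.219). P-values were adjusted over all tested genes by the Benjamini-Hochberg method, with 0.05 as the threshold. CPM values use the TMM-scaled library sizes. DESeq2 1.42.0, limma-voom (limma 3.58.1), other scalings and filters, fits of the compared groups alone, fits with a term for or without the libraries apart, and leaving out each library were the alternatives. The fits were also run on simulated counts, drawn separately for each library. Those counts lacked the shared component of the libraries apart, so error rates in its presence were not tested. Total counts of 13086755 to 21466978 per library limit the precision for members such as Fgf21, which had as few as 3 counts.

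Positions and exon lengths are from GENCODE M21 (GRCm38). Promoters are from RefSeq (GRCm38.p6) and were searched on both strands. The members, the related gene lists, the markers and the libraries apart were chosen with earlier results of these data known. All 32 members are named. Values in every mouse are given for members that passed the joint test or a comparison with control, and also for Cpt1a, Pdk4, Ucp2, Fgf21, Angptl4 and Ppargc1a. From each related list the counts and at most 3 genes are given, those of smallest adjusted p in the 6.0 mg/kg-day comparison.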

Additional observations from a re-analysis of the deposited data

Results flagged for a closer look

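Dixon's critical value for 4 samples was exceeded in 19 of the 160 combinations of a member and a group. In each, 1 mouse lay far from the other 3. Chance alone gives about 1 in 20 where combinations are independent. These are not, because several members moved in the same library, and the rate over all genes was not computed. Of the 19, 15 were the library apart of the group. Those libraries were picked from the residuals of these same data, so this count is not separate evidence about them. For Cpt2 the low values were 50.8 CPM in library 3 (control) beside 88.7–95.2 CPM in the other 3 mice and 61.8 CPM in library 15 (0.3 mg/kg-day) beside 87.9–90.9 CPM in the other 3 mice. Acsl1 had a high value of 979 CPM in library 15 (0.3 mg/kg-day) beside 755–785 CPM in the other 3 mice. For Acadl the low values were 101 CPM in library 11 (0.03 mg/kg-day) beside 154–162 CPM in the other 3 mice and 114 CPM in library 15 (0.3 mg/kg-day) beside 164–166 CPM in the other 3 mice. Acads had a low value of 77.4 CPM in library 3 (control) beside 131–141 CPM in the other 3 mice. For Acadvl the high value was 330 CPM in library 15 (0.3 mg/kg-day) beside 285–292 CPM in the other 3 mice. Hadh had a low value of 443 CPM in library 15 (0.3 mg/kg-day) beside 556–574 CPM in the other 3 mice. For Hadha the high value was 485 CPM in library 15 (0.3 mg/kg-day) beside 322–345 CPM in the other 3 mice. Hadhb had a high value of 263 CPM in library 3 (control) beside 145–149 CPM in the other 3 mice. For Eci2 the low value was 169 CPM in library 23 (6.0 mg/kg-day) beside 206–211 CPM in the other 3 mice. Etfb had a low value of 132 CPM in library 23 (6.0 mg/kg-day) beside 216–225 CPM in the other 3 mice. For Etfdh the low values were 201 CPM in library 3 (control) beside 291–305 CPM in the other 3 mice, 199 CPM in library 15 (0.3 mg/kg-day) beside 258–267 CPM in the other 3 mice and 242 CPM in library 23 (6.0 mg/kg-day) beside 340–357 CPM in the other 3 mice. Pdk4 had outlying values of 6.37 CPM in library 1 (control) beside 4.78–4.97 CPM in the other 3 mice and 7.44 CPM in library 17 (3.0 mg/kg-day) beside 11.4–11.8 CPM in the other 3 mice. For Fgf21 the low value was 0.856 CPM in library 4 (control) beside 1.04–1.07 CPM in the other 3 mice. Angptl4 had a high value of 38.1 CPM in library 2 (control) beside 27.4–28.9 CPM in the other 3 mice.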

How the results depend on the processing

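The count of members called at 6.0 mg/kg-day against control was 14, and it stayed between 13 and 15 with other scaling factors, filters on low counts, DESeq2 and limma-voom. It was 9 when only the 2 groups compared were fitted, 21 with a term for the libraries apart, 19 without them, and 11–16 when 1 library was left out. The share of all genes called was 12%, 37.1% and 34.5% in the first 3 of these fits, beside 22.4%. It was 15.3–30.2% when 1 library was left out, and 14.5–25% with the other scalings, filters and methods. Fitting the 2 groups alone lost Cpt1a, Cpt2, Acsl5, Acadvl and Acad11, with edgeR adjusted p of 0.0555, 0.0611, 0.113, 0.173 and 0.0989. Without a filter on low counts Acadvl was lost (edgeR adjusted p = 0.0762). The term for the libraries apart added Acaa2, Acadl, Acat1, Etfb, Etfdh, Fgf21 and Hadha. Of the 14, Slc25a20, Acsl3, Acadm, Hadhb, Eci1, Eci2, Decr1, Pdk4 and Ppargc1a kept the call in all 17 alternatives. When the model had a term for the libraries apart the counts were 1 at 0.03, 3 at 0.3 and 7 at 3.0 mg/kg-day. There were 7 at 6.0 against 3.0, 24 at 6.0 against 0.3 and 24 in the joint test. The shares of all genes were, in the same order, 0.0855%, 2.01%, 9.17%, 9.21%, 43.1% and 39.7%. In the fit without the libraries apart the counts were 2 at 0.3 and 6 at 3.0 mg/kg-day. There were 8 at 6.0 against 3.0, 26 at 6.0 against 0.3 and 23 in the joint test. The shares of all genes were then 1.04%, 5.64%, 9.75%, 42.4% and 36.5%. DESeq2 gave 1 member at 0.03 and 3 at 0.3 mg/kg-day, where it called 0.0658% and 1.22% of all genes. Fits of only the groups compared gave 1 at 0.3 mg/kg-day (0.347% of all genes) and 0 at 6.0 against 3.0 (0%). No filter on low counts gave 1 at 6.0 against 3.0 (1.2%). With 1 library left out the counts were 0–1 at 0.3 mg/kg-day (1, Acat1, without library 4) and 1–3 at 3.0 mg/kg-day. At 6.0 against 3.0 they were 1–7. The shares of all genes in these comparisons were 0.0778–0.331%, 2.92–4.42% and 0.714–6.29%. The cause of these changes was not tested. Fitting the groups alone and leaving out libraries use fewer mice.

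Of 543 combinations of a member and an alternative at 3.0 mg/kg-day, 507 kept direction and side of the threshold, 12 lost a call, 12 gained one and 12 changed sign. At 6.0 mg/kg-day the numbers were 490, 20, 23 and 10. Every sign change was of a member that had not passed. At 3.0 mg/kg-day the log2 fold change of Hadh was 0.017 and that of Eci2 was -0.0569 without the libraries apart. Leaving out 1 library gave ranges at 3.0 mg/kg-day of -0.0306 to 0.136 for Echs1, -0.0704 to 0.0537 for Hadh, -0.0161 to 0.194 for Hadha, -0.0721 to 0.0507 for Eci2, -0.0642 to 0.0198 for Etfa, -0.0792 to 0.128 for Etfdh and -0.166 to 0.0359 for Angptl4. At 6.0 mg/kg-day the ranges were -0.0362 to 0.183 for Acsl4, -0.0303 to 0.0845 for Hadh, -0.172 to 0.0644 for Bdh1, -0.121 to 0.0628 for Pdk1 and -0.047 to 0.285 for Ucp2. No paired analysis was made, because the labels name no pairs and no library number is shared between groups. The library apart was the third of each group in library order. Whether this position marks a block of mice was not tested, and the term for the libraries apart is the only fit that used it. Each group has 4 mice, 1 of them the library apart, and Fgf21, with as few as 3 counts in a library, is the member that depth limits most.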
